A study of Mus musculus with 12 samples.

Results

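The cortex of mice that lack *Gde2* was compared with WT cortex at 4 months of age, in 3 *Gde2*KO and 3 WT RNAseq libraries, which are 6 of the 12 libraries of the series. The members described are named protein-coding genes. The table lists 20454 of them, and 16742 had enough signal to be tested, among 19035 genes tested in all. Genes known by a Gm number or a pseudogene symbol were left out of the description and kept in the fit. WT animals carry functional *Gde2*, and *Gde2*KO animals are *Gde2*-/- in every cell from conception, so a difference at 4 months may have arisen at any earlier stage. The study used male and female mice, and the labels name neither the sex nor the litter of an animal. The other 6 libraries, 3 of each genotype at 19 months, are from other animals and are used below to look at the same genes again.

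GDE2, the product of *Gdpd5*, is a membrane protein with an extracellular enzymatic domain that cuts the glycosylphosphatidylinositol anchor by which some proteins are held at the cell surface. In the nervous system it is known for releasing such proteins from neurons and for promoting the differentiation of motor neurons, and mice without it develop neurodegeneration as they age. The 4-month libraries were made to look for pathways that depend on GDE2 and bear on nuclear transport and the location of the nuclear protein TDP-43, and the study then turned to Wnt signaling. Cortex was measured here as bulk polyA RNA, in which fewer cells of a type and less RNA per cell cannot be told apart.

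All levels below are normalized counts, the estimated reads of a gene divided by the size factor of its library, and values for each genotype are given in the order of replicates 1, 2 and 3. At these depths, 46434270 to 59728494 estimated reads per library, 1 read is worth 0.597 to 0.721 normalized counts. A gene was called changed at a limma adjusted p under 0.1 and a fold above 1.65, the study's own limits. The study applied them to a Wald test, so the calls below are not the study's list and their counts differ from its count. Fold changes are on the log2(value + 0.5) scale, *Gde2*KO minus WT, and adjusted p values are Benjamini-Hochberg values over all 19035 genes. Because 1 library stands for 1 animal and litters are not given, p values measure the spread between these libraries.

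The brain regions contained in the libraries were not the same, and WT replicates 1 and 2 stood apart. Of 12 hippocampal markers, 10 were higher in both of these libraries than in the other 4, with a median fold of 8.93 over all 12. *Prox1*, a transcription factor of dentate granule cells, stood at 3548, 3015 and 603 in WT and 716, 586 and 568 in *Gde2*KO. *Fibcd1*, a marker of CA1 pyramidal cells, stood at 4288, 4711 and 363 in WT and 828, 335 and 463 in *Gde2*KO. All 16 striatal markers were lower in WT replicates 1 and 2 than in the other 4 libraries, with a median fold of 11. *Ppp1r1b*, which encodes DARPP-32, stood at 2359, 1513 and 20306 in WT and 17321, 26699 and 11934 in *Gde2*KO. Of 12 markers of cortical excitatory neurons, 8 were lower in both WT replicates 1 and 2. *Lamp5*, a marker of upper cortical layers, stood at 717, 1079 and 5218 in WT and 5738, 5027 and 9308 in *Gde2*KO, whereas *Slc17a7*, the vesicular glutamate transporter of forebrain excitatory neurons, overlapped between genotypes. *Lamp5* was detected in all 6 libraries. The score of the cortical excitatory markers was -0.75 and -0.52 in WT replicates 1 and 2 and 0.18 to 0.44 in the other 4 libraries. The median fold of the 12 markers was 3.01 lower in that pair, and 2 markers were higher in both. By these markers 2 of the 3 WT libraries held more hippocampal RNA, less striatal RNA and less RNA of most cortical excitatory markers than the rest.

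**Figure D1:**
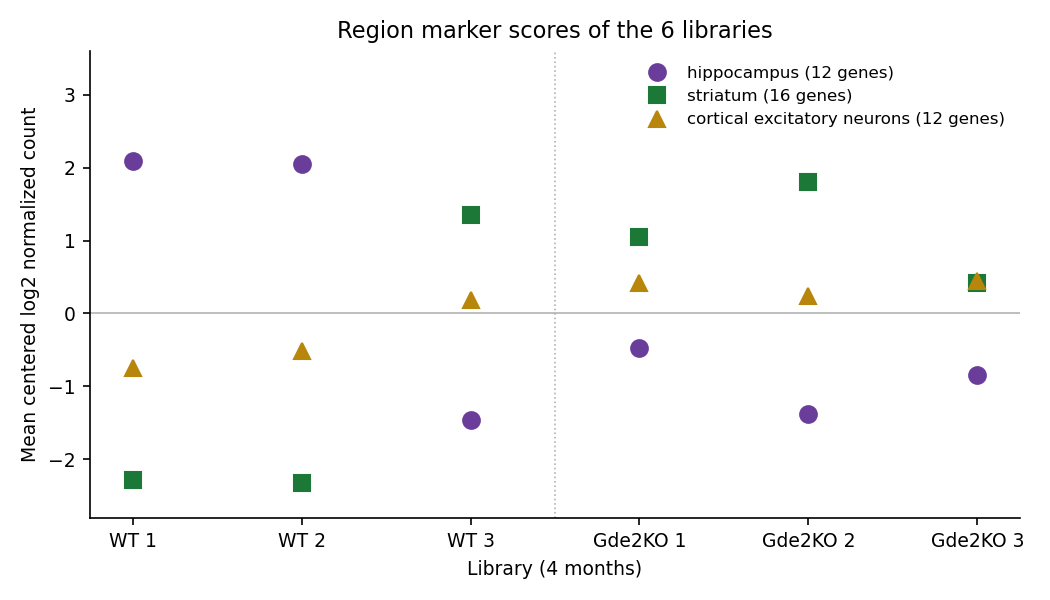
Marker scores of each 4-month library for hippocampus, striatum and cortical excitatory neurons, as the mean over the markers of the log2 level centered on the 6 libraries. WT replicates 1 and 2 sit at 2.10 and 2.05 for hippocampus and at -2.28 and -2.32 for striatum, while WT replicate 3 (-1.46 and 1.35) lies with or beyond the *Gde2*KO libraries.

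The effect of these 2 libraries on a simple comparison was large. When WT replicate 3 was left out, so that only WT replicates 1 and 2 stood for WT, 1510 genes were called, with 5.63% of genes tested called higher and 2.40% called lower, and the calls included all 16 striatal markers as higher and 10 of 12 hippocampal markers as lower. With all 6 libraries the striatal and hippocampal markers vary within WT and none was called. The called genes, and the lists where it matters, are therefore also given against WT replicate 3 alone, whose hippocampal and striatal scores are near those of the *Gde2*KO libraries. In 29.1% of all genes tested every *Gde2*KO library was above WT replicate 3, and in 13.2% every one was below it. The part of region content in the differences that follow was not tested beyond these values.

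A second library stood apart among the *Gde2*KO samples. Mitochondrially encoded transcripts made up 8.89% of the total in *Gde2*KO replicate 3 and 5.13% to 6.0% in the other 5 libraries. Its total of 41229086 normalized counts was above the 31917431 to 35949224 of the others. The median log2 fold change over all genes was 0.11 in the deposited scaling, 0.04 without *Gde2*KO replicate 3 and 0.01 after rescaling by the median of ratios, so small differences below are read against that shift. Genes without overlap between genotypes split into 11.1% higher and 4.26% lower in the deposited scaling and into 7.79% and 7.07% after rescaling. Transcripts of 4 Y-linked genes were low in all 6 libraries (*Ddx3y* at 21.8 to 46.5), so the 4-month libraries gave no sign of a sex difference between genotypes. At 19 months *Ddx3y* ran from 0 to 1776, and the median log2 fold change of the 4 genes was -1.33. The sexes may therefore be unevenly divided between the genotypes of that age, and the part of sex in the 19-month values was not tested.

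The targeted gene was lower in every *Gde2*KO library without passing the test. *Gdpd5* (ENSMUSG00000035314.10, chromosome 7 of GRCm38 from 99381414 to 99461877) stood at 684, 702 and 1199 in WT and 417, 585 and 403 in *Gde2*KO. The means were 862 ± 293 and 468 ± 101 (SD, n = 3 each), a log2 fold change of -0.85 (SE 0.25, limma adjusted p = 0.463). All 3 *Gde2*KO values lay below all 3 WT values. An exact two-sided permutation of the 6 libraries gave p = 0.1, and no smaller p is possible with 3 a side. Its most abundant transcript in WT, ENSMUST00000037528.9, stood at 447, 451 and 732 in WT and 232, 311 and 186 in *Gde2*KO. That transcript made up 40.8% ± 4.0 of the TPM of *Gdpd5* in WT and 25.7% ± 2.6 in *Gde2*KO (SD, n = 3 each), without overlap between genotypes. In the animals of 19 months *Gdpd5* fell by 1.11 on the log2 scale (limma adjusted p = 0.0111). Remaining transcript is no measure of protein, and the deposited transcript values do not show which exons the reads came from.

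Over all genes, 24 were called at 4 months, 0.126% of those tested, and 2025 (10.6%) had an unadjusted p under 0.05. Of the 24, 20 were higher in *Gde2*KO (0.105% of genes tested) and 4 were lower (0.0210%). Named protein-coding genes made up 11 of the calls, 10 higher (0.0597%) and 1 lower (0.00597%), which together are 0.0657% of the 16742 tested. Leaving out 1 library changed the count of named genes to 1 without *Gde2*KO replicate 3, to 1415 without WT replicate 3 and to between 2 and 6 without any other library. *Nr4a1*, *Btg2*, *Dusp6*, *Ccn1* and *Apold1* are early response genes, which are transcribed within minutes of a stimulus such as neuronal activity or a growth factor. *Srp54a*, *Srp54b* and *Fam177a* are neighbors on chromosome 12. *Col6a4* encodes a collagen chain, *Xaf1* an interferon-induced promoter of apoptosis, and *Myo7a*, the gene that fell, an unconventional myosin.

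**Figure D2:**
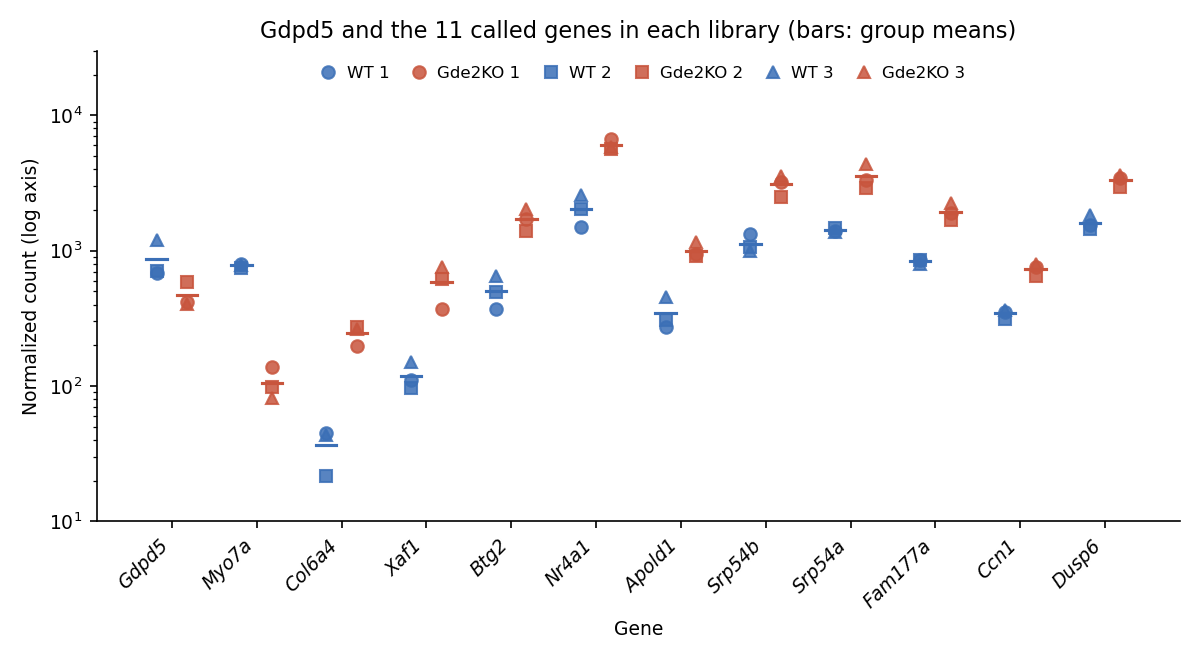
Normalized counts of *Gdpd5* and of the 11 called named genes in each 4-month library, on a log scale, with WT and *Gde2*KO replicates as separate points. The WT and *Gde2*KO points of each gene do not overlap, and for the early response genes WT replicate 3 is the highest of the 3 WT libraries.

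*Myo7a* gave the strongest signal. This gene (ENSMUSG00000030761.15, chromosome 7 from 98051060 to 98119524, minus strand) encodes myosin VIIA, known for its role in the stereocilia of hair cells. Its level was 795, 749 and 790 in WT and 138, 98.2 and 81.2 in *Gde2*KO, so that the lowest WT library was more than 5 times the highest *Gde2*KO library. It fell by 2.91 on the log2 scale (SE 0.21, limma adjusted p = 0.00358), to a ratio of 0.133. Against WT replicate 3 alone the log2 difference was -2.93, and against WT replicates 1 and 2 it was -2.90. *Myo7a* was the one named gene called at both ages, with a log2 fold change of -2.16 at 19 months (limma adjusted p = 0.000818), where WT libraries held 852 to 887 and *Gde2*KO libraries 164 to 224. At that age 18 genes were called in all, 0.0969% of 18583. The call was kept in 24 of 25 alternative analyses and lost with gene sums of TPM (log2 fold change -2.13, limma adjusted p = 0.127). Its transcript ENSMUST00000107122.7 stood at 272, 309 and 364 in WT and 19.2, 24.6 and 24.5 in *Gde2*KO. Among 11 genes of stereocilia and Usher syndrome it was the single member whose genotypes did not overlap. *Myo7a* lies 1.26 Mb from the targeted *Gdpd5* locus, and the part of that position in the difference was not tested.

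*Col6a4*, a collagen VI chain of the extracellular matrix, rose most among the called named genes. The gene (ENSMUSG00000032572.9, chromosome 9 from 105989454 to 106096783) stood at 44.7, 21.8 and 43.6 in WT and 199, 272 and 265 in *Gde2*KO. The log2 fold change was 2.78 (SE 0.31, limma adjusted p = 0.0371), and 2.46 remained against WT replicate 3. With gene sums of TPM the log2 fold change was 1.81 and the call was lost (limma adjusted p = 0.102). At 19 months its libraries ran from 55.9 to 225 in WT and from 99.5 to 297 in *Gde2*KO, with a log2 fold change of 0.24. The lowest value of each genotype came from its shallowest library, with 6734475 estimated reads in WT and 3707928 in *Gde2*KO. In these 2 libraries 1 read is worth 4.66 and 8.29 normalized counts. A low WT level was seen in the 4-month animals and, at 19 months, in that shallow WT library alone. Of 21 collagen genes tested it was the one called. *Col6a2*, which encodes another chain of collagen VI, stood at 334, 436 and 514 in WT and 598, 631 and 679 in *Gde2*KO. *Col4a1*, a chain of vascular basement membranes, went the other way with 2626, 1652 and 1414 in WT and 1105, 1399 and 1305 in *Gde2*KO, and neither of the latter pair passed the test.

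*Xaf1* (ENSMUSG00000040483.15, chromosome 11 from 72301629 to 72313733) was the other called gene that rose more than 4 times. It stood at 110, 96.4 and 151 in WT and 373, 619 and 757 in *Gde2*KO, a log2 fold change of 2.25 (SE 0.29, limma adjusted p = 0.0626), with 1.88 left against WT replicate 3. With gene sums of TPM the log2 fold change was 1.24 and the call was lost (limma adjusted p = 0.465). Most of the difference sat in 1 transcript. ENSMUST00000146233.7 stood at 32.9, 32.3 and 37.8 in WT and 299, 514 and 665 in *Gde2*KO, while ENSMUST00000142921.1 stood at 35.1, 33.7 and 58.6 in WT and 27.7, 34.2 and 18.9 in *Gde2*KO. The share of *Xaf1* TPM in the first transcript was 9.82% ± 1.99 in WT and 52.4% ± 5.8 in *Gde2*KO (SD, n = 3 each). Of 22 interferon-stimulated genes, *Xaf1* was the one called, and 3 were higher in every *Gde2*KO library than in every WT library, where 11.1% of all genes were. The other two were *Ifit2*, an antiviral RNA-binding protein (log2 fold change 0.69), and *Gbp3*, a guanylate-binding GTPase (0.22), each with an adjusted p above 0.4. At 19 months *Xaf1* ranged from 152 to 731 within WT and was not called (log2 fold change 0.44, limma adjusted p = 0.807).

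*Srp54a*, *Fam177a* and *Srp54b* lie within 109 kb on the plus strand of chromosome 12, from 55080262 to 55189573. SRP54 is the GTPase subunit of the signal recognition particle, which brings ribosomes that make secreted or membrane proteins to the endoplasmic reticulum. *Srp54a* stood at 1408, 1482 and 1377 in WT and 3316, 2913 and 4377 in *Gde2*KO (log2 fold change 1.29, limma adjusted p = 0.0626). *Srp54b* stood at 1325, 1062 and 1000 in WT and 3212, 2485 and 3564 in *Gde2*KO (1.45, 0.0546). *Fam177a*, a gene of little known function between them, stood at 854, 857 and 798 in WT and 1904, 1676 and 2235 in *Gde2*KO (1.20, 0.0478). In all 3 genes the WT libraries lay close together, and the log2 difference from WT replicate 3 was 1.34, 1.61 and 1.27, as large as the difference from all WT libraries. The *Srp54* genes are near-identical copies between which an aligner divides reads, so their separate levels are uncertain. A further copy, *Srp54c*, stood at 2370, 2306 and 2193 in WT and 2496, 2055 and 3450 in *Gde2*KO, and overlapped between genotypes. One transcript of *Srp54a*, ENSMUST00000223111.1, was at 0, 0.68 and 0 in WT and at 130, 127 and 125 in *Gde2*KO. The other 14 of 16 genes tested for the signal recognition particle and its translocon overlapped between genotypes.

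The same 3 neighbors pointed the other way at 19 months. *Srp54b* stood at 1941, 1556 and 2428 in the WT libraries of that age and 925, 1125 and 798 in the *Gde2*KO libraries, a log2 fold change of -1.05. That of *Srp54a* was -0.72 and that of *Fam177a* -0.68. None of the 3 was called at 19 months, though their genotypes again did not overlap. The difference between the ages was tested as an interaction of genotype and age, and it passed for *Fam177a* (log2 difference -1.88, limma adjusted p = 0.00469), *Srp54b* (-2.49, 0.00469) and *Srp54a* (-2.02, 0.0118). Over all genes 9 passed that test, 0.0480% of 18731.

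The 5 called early response genes were taken with the rest of their kind. These genes carry binding sites for factors that are already present in the resting cell, above all CREB at cyclic AMP response elements and SRF at serum response elements, and many encode transcription factors or brakes on MAP kinase signaling. *Nr4a1*, an orphan nuclear receptor induced by depolarization, stood at 1485, 2044 and 2593 in WT and 6696, 5623 and 5789 in *Gde2*KO, a log2 fold change of 1.60 (SE 0.20, limma adjusted p = 0.0626). *Btg2*, an antiproliferative co-regulator, stood at 371, 491 and 650 in WT and 1712, 1390 and 2036 in *Gde2*KO (1.78, SE 0.23, adjusted p = 0.0626). *Apold1*, an endothelial early response gene, stood at 271, 305 and 457 in WT and 939, 909 and 1159 in *Gde2*KO (1.57, SE 0.22, adjusted p = 0.0765). In each of them the lowest *Gde2*KO library was about 2 times the highest WT library or more. *Dusp6*, the phosphatase that inactivates ERK, stood at 1538, 1451 and 1824 in WT and 3447, 2976 and 3595 in *Gde2*KO (1.06, SE 0.14, adjusted p = 0.0663). *Ccn1*, a secreted matrix protein, stood at 350, 313 and 367 in WT and 754, 653 and 803 in *Gde2*KO (1.10, SE 0.15, adjusted p = 0.0663). Against WT replicate 3 the log2 differences were 1.21 for *Nr4a1*, 1.38 for *Btg2*, 1.12 for *Apold1*, 0.87 for *Dusp6* and 1.0 for *Ccn1*. With gene sums of TPM the calls of *Nr4a1* (1.42, limma adjusted p = 0.187) and *Apold1* (1.43, 0.127) were lost. In *Nr4a1* the difference lay mainly in transcript ENSMUST00000023779.7, with 1126, 1524 and 1909 in WT and 5994, 4842 and 4890 in *Gde2*KO.

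The 250 bases before the start sites of *Nr4a1*, *Btg2* and *Ccn1* are shown because these genes rose together and because such elements are the best-known feature of early response promoters. The sequences are from RefSeq on GRCm38.p6, 5′ to 3′ on the strand of the gene, and capitals mark the half-site of the cyclic AMP response element, TGACG or its complement CGTCA. *Nr4a1* (chr15:101266596-101266845, plus strand) holds 4 half-sites, which begin at -233, -213, -69 and -40 from the start site. *Btg2* (chr1:134079156-134079405, minus strand) holds the full element TGACGTCA at -166, which counts as 2 overlapping half-sites. *Ccn1* (chr3:145649986-145650235, minus strand) holds 1 half-site at -58.
Nr4a1: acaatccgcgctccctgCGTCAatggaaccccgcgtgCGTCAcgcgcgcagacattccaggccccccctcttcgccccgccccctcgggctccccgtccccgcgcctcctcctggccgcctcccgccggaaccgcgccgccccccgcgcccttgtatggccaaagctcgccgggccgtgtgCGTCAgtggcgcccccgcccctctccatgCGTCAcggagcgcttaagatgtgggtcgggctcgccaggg
Btg2: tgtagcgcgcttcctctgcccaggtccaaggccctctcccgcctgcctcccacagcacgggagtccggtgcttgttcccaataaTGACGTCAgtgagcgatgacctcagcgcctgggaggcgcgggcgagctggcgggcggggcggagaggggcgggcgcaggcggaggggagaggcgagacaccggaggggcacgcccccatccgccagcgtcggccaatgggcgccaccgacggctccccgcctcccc
Ccn1: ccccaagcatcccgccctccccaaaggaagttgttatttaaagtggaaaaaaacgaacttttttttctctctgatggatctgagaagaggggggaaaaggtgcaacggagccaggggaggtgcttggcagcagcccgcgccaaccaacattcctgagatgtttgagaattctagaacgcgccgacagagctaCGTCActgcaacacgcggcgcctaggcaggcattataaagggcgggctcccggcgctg

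Neither half-site was found in the same window of *Dusp6*, and *Apold1* holds 1 at -52 in a window that lies inside a longer annotated transcript. Of the 68 early response genes listed, 53 had a RefSeq promoter, and 31 of them (58.5%) held a half-site on either strand, against 19.8% of all 27025 genes with a promoter. The full element was present in 6 of the 53 (11.3%) and in 1.77% of all genes. The 6 were *Btg2*, *Dusp1*, *Maff*, *Pcsk1*, *Plk2* and *Scg2*. The lists came from a class of genes known for these elements, and promoters were not matched for base content. The excess over all genes is therefore no result of these libraries. The matches describe letters in a window and not occupied sites, and of the 6 genes *Btg2* alone was called while *Maff*, *Pcsk1*, *Plk2* and *Scg2* overlapped between genotypes.

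Across 5 lists of early response genes, 67 of 68 were tested, and 40 of the 67 were higher in every *Gde2*KO library than in every WT library, where 11.1% of all genes were. One, *Spred3*, was lower in every *Gde2*KO library, where 4.26% of all genes were. The median log2 fold change of the 67 was 0.76, beside 0.11 for all genes. The nuclear receptor and Egr factors had 5 of 7 without overlap, the Fos and Jun family 4 of 8, MAP kinase feedback genes 5 of 13, other early response genes 19 of 23 and synaptic effectors of activity 7 of 16. The 5 calls above are all that passed the test. The lists were chosen with earlier results of these libraries known and are no independent evidence of a direction.

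**Figure D3:**
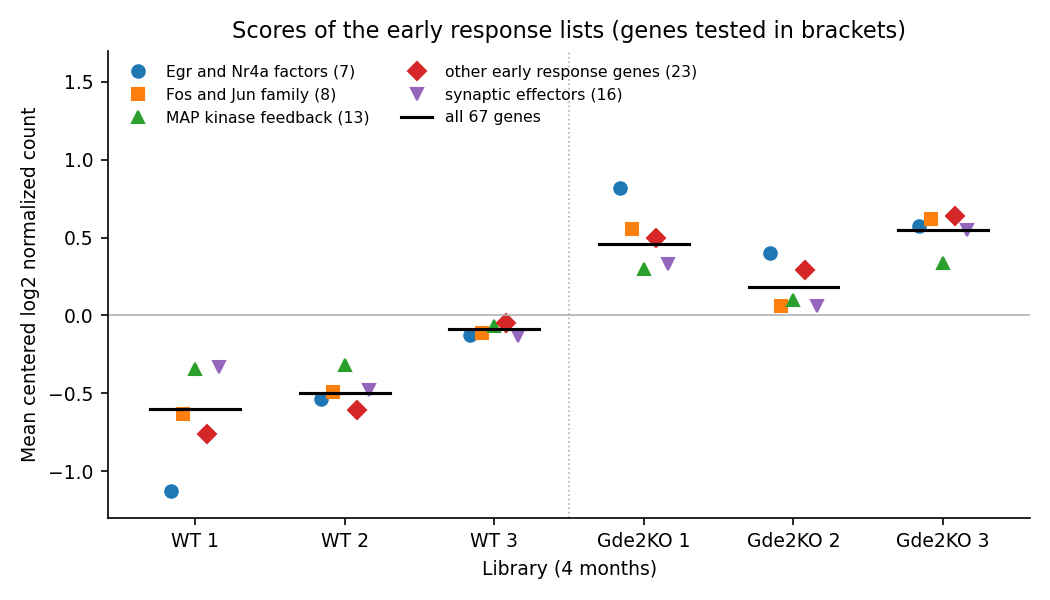
Score of each 4-month library for the 5 lists of early response genes, as the mean over members of the log2 level centered on the 6 libraries. Over the 67 genes together the scores are -0.60, -0.50 and -0.09 in WT and 0.46, 0.18 and 0.55 in *Gde2*KO, with WT replicate 3 between the other WT libraries and the *Gde2*KO libraries.

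The Egr factors, which transcribe synaptic plasticity genes, showed the position of WT replicate 3 plainly. *Egr1* stood at 2064, 2808 and 8590 in WT and 14712, 12102 and 11407 in *Gde2*KO. *Egr2* stood at 16.9, 32.4 and 149 in WT and 397, 310 and 323 in *Gde2*KO. *Egr4* stood at 487, 832 and 1332 in WT and 2459, 1798 and 2317 in *Gde2*KO. For each of them WT replicate 3 lay between the other WT libraries and the *Gde2*KO libraries, and the limma adjusted p was 0.463. *Nr4a2* and *Nr4a3*, the close relatives of *Nr4a1*, overlapped between genotypes. *Nr4a3* stood at 2487, 3104 and 1022 in WT and 1879, 1169 and 1565 in *Gde2*KO. For both, WT replicate 2 of the hippocampus-rich pair was the highest library, and every *Gde2*KO library was above WT replicate 3.

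Among the AP-1 factors *Fos* and *Junb* differed most. *Fos* stood at 281, 497 and 1301 in WT and 2926, 2229 and 3139 in *Gde2*KO (log2 fold change 2.27, limma adjusted p = 0.439). *Junb* stood at 2064, 2247 and 2667 in WT and 6526, 4429 and 7323 in *Gde2*KO (1.37, 0.114), with little spread in WT. *Jun*, in contrast, overlapped, with 4656, 3805 and 1944 in WT and 3549, 2134 and 3117 in *Gde2*KO. The feedback genes of MAP kinase signaling were as mixed. *Dusp1*, a phosphatase of p38 and JNK, stood at 549, 665 and 1546 in WT and 3397, 2866 and 3134 in *Gde2*KO (1.92, 0.26), and *Spry2*, an inhibitor of receptor tyrosine kinase signaling, at 802, 851 and 1534 in WT and 2021, 1974 and 2026 in *Gde2*KO (0.98, 0.463). *Dusp4*, *Dusp5* and *Spry1* overlapped between genotypes.

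Genes by which activity acts on synapses were divided in the same way. *Arc*, which controls the trafficking of AMPA receptors, stood at 2331, 2971 and 8405 in WT and 15494, 11353 and 14713 in *Gde2*KO. *Npas4*, a transcription factor specific to neuronal depolarization, stood at 199, 273 and 790 in WT and 1143, 1238 and 1167 in *Gde2*KO. *Rgs2*, a regulator of G protein signaling, stood at 1759, 1321 and 2191 in WT and 2906, 2965 and 3675 in *Gde2*KO. In these 3 genes the genotypes did not overlap. The neurotrophin gene *Bdnf* stood at 2035, 1464 and 798 in WT and 1235, 811 and 1581 in *Gde2*KO, and *Ptgs2*, which encodes the inducible cyclooxygenase, at 1207, 687 and 322 in WT and 542, 445 and 693 in *Gde2*KO. In both, WT replicates 1 and 2, the libraries with more hippocampus, were above WT replicate 3.

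How much of the early response pattern rests on WT replicates 1 and 2 can be given as values. In 38 of the 40 genes without overlap, WT replicate 3 was the highest WT library. Against WT replicate 3 alone, every *Gde2*KO library was higher in 54 of the 67 genes, where 29.1% of all genes were, and the median log2 difference was 0.43 in place of 0.76. Of the 40 genes, 13 were past the fold limit over WT replicate 3. Without *Gde2*KO replicate 3 the count without overlap was 40, where 13.2% of all genes were higher, and the median was 0.67. After rescaling by the median of ratios 36 of the 67 were higher without overlap, where 7.79% of all genes were. At 19 months 1 of the 67 was higher without overlap, where 5.85% of all genes were, and 3 were lower, where 8.32% were, with a median log2 fold change of -0.03, and all 5 genes called at 4 months overlapped between genotypes.

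**Figure D4:**
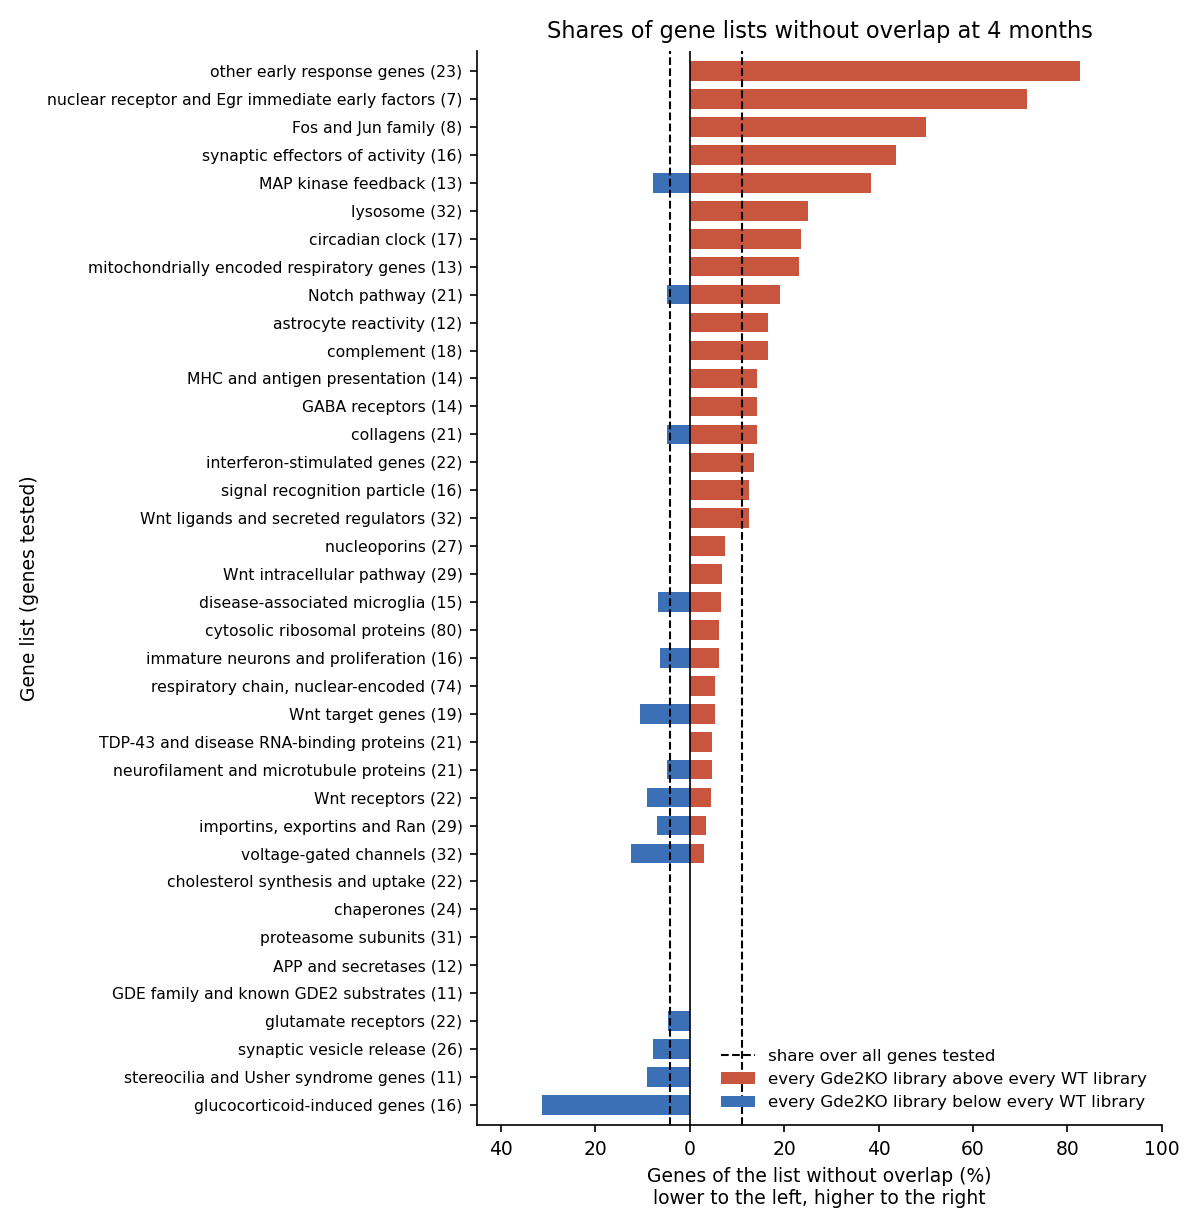
Share of genes without overlap between genotypes at 4 months for the functional gene lists, higher and lower in *Gde2*KO, beside the shares over all genes tested (11.1% and 4.26%). Other early response genes (82.6%) and the nuclear receptor and Egr factors (71.4%) have the highest shares among the lists, and glucocorticoid-induced genes have the highest share lower (31.2%).

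Glucocorticoid-induced genes, which report on circulating stress hormone, included members that were lower without overlap and none that was higher without overlap. Of 16 tested, 5 were lower in every *Gde2*KO library, where 4.26% of all genes were, and none was called. *Fkbp5*, a co-chaperone of the glucocorticoid receptor and the usual readout of its activity, stood at 2270, 1798 and 1367 in WT and 1018, 1054 and 1062 in *Gde2*KO. *Zbtb16*, a zinc finger transcription factor, stood at 2303, 2468 and 1267 in WT and 1146, 1227 and 980 in *Gde2*KO. *Hif3a*, a hypoxia-inducible factor, stood at 210, 192 and 300 in WT and 132, 120 and 78.4 in *Gde2*KO. In *Hif3a* it was WT replicate 3 that stood farthest from *Gde2*KO, and in *Fkbp5* and *Zbtb16* it stood nearest. The remaining members without overlap were *Plin4*, a lipid droplet protein, and *Pdk4*, a kinase that restrains glucose oxidation. Against WT replicate 3 alone 11 of 16 were lower, where 13.2% of all genes were. The median log2 fold change of the list was -0.25, and -0.34 after rescaling. At 19 months the median was -0.09.

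The circadian clock genes, whose level depends on the hour at which tissue is taken, were also read, since *Per1* is both a clock and an early response gene. Of 17 tested, 4 (23.5%) were higher without overlap, where 11.1% of all genes were, and none was called. They were *Per1*, *Npas2*, *Nr1d2* and *Ciart*, and *Per1* stood at 2478, 2589 and 3750 in WT and 4662, 4413 and 3823 in *Gde2*KO. *Per2* (1419, 1131 and 1202 in WT, 1198, 980 and 826 in *Gde2*KO) and *Clock* overlapped. After rescaling by the median of ratios 1 of the 17 (5.88%) was higher without overlap, where 7.79% of all genes were. The hour of dissection is not given in the labels.

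The Wnt pathway, which the study took up, gave no called gene among 95 tested in 4 lists. The study drew the pathway from gene set enrichment and followed it with a reporter in neurons and with β-catenin protein. Calls of single genes in bulk RNA are an unlike measure. Wnt ligands bind Frizzled receptors and LRP5 or LRP6, and the signal protects β-catenin, the product of *Ctnnb1*, from destruction so that it can act with TCF factors on target genes. Of 32 ligands and secreted regulators, 4 were higher without overlap, which is 12.5% where 11.1% of all genes were. *Wnt9a* stood at 136, 213 and 552 in WT and 697, 582 and 886 in *Gde2*KO, and *Wnt10a* at 73.5, 87.7 and 255 in WT and 313, 256 and 448 in *Gde2*KO. The other two were *Wls*, which carries Wnt proteins to the cell surface, and *Dkkl1*, a secreted relative of the Dickkopf inhibitors, at 26, 47.2 and 569 in WT and 603, 612 and 1157 in *Gde2*KO. In all 4 WT replicate 3 was the WT library nearest to *Gde2*KO, with log2 differences of 0.24 to 0.41 left against it.

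Receptors and intracellular members showed less. Of 22 receptors 1 (4.55%) was higher without overlap, under the 11.1% of all genes, and 2 (9.09%) were lower, where 4.26% of all genes were. After rescaling 0 were higher and 3 lower. *Fzd5* stood at 31.8, 54.6 and 75.1 in WT and 123, 120 and 78.1 in *Gde2*KO, while *Fzd8* and the co-receptor *Lrp6* were lower by 0.28 and 0.18 on the log2 scale, with adjusted p of 0.503 and 0.545. Of 29 intracellular members 2 (6.9%), *Dvl1* and *Tle4*, were higher without overlap, and 0 were lower. After rescaling 1 was higher and 2 were lower. *Ctnnb1* itself overlapped, with 18938, 15682 and 12865 in WT and 17286, 12891 and 19780 in *Gde2*KO. Among 19 target genes 1 (5.26%) was higher without overlap, where 11.1% of all genes were, and 2 (10.5%) were lower, where 4.26% were. After rescaling 0 of the 19 were higher and 2 lower, where 7.79% and 7.07% of all genes were. *Axin2*, the negative regulator that reports pathway activity in most tissues, was the higher one in the deposited scaling. It stood at 544, 660 and 772 in WT and 861, 828 and 848 in *Gde2*KO. *Myc* stood at 226, 204 and 235 in WT and 157, 184 and 167 in *Gde2*KO, and *Apcdd1* at 1210, 969 and 1047 in WT and 906, 927 and 906 in *Gde2*KO. The medians of the 4 lists were 0.29, 0.14, 0.04 and 0.12 on the log2 scale beside 0.11 for all genes, and 0.20, 0.04, -0.06 and 0.02 after rescaling beside 0.01.

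Genes of TDP-43 and of transport through the nuclear pore are read against the shares of all genes without overlap, 11.1% higher and 4.26% lower. *Tardbp*, which encodes TDP-43, stood at 5822, 6294 and 5732 in WT and 5811, 5899 and 6608 in *Gde2*KO. Of 21 RNA-binding and disease genes in its list 1 was higher without overlap, *Sqstm1*, an autophagy receptor, at 11692, 11412 and 12014 in WT and 14636, 12112 and 18203 in *Gde2*KO. Of 27 nucleoporins 2 were higher, *Nup62* of the central channel (766, 752 and 807 in WT, 949, 843 and 980 in *Gde2*KO) and *Nup37*. Of 29 importins, exportins and Ran factors 1 (3.45%) was higher and 2 (6.9%) were lower, and the 3 were *Rcc1*, *Tnpo1* and *Xpo6*. After rescaling by the median of ratios 2 of 21 (9.52%), 2 of 27 (7.41%) and 4 of 29 (13.8%) were lower, where 7.07% of all genes were. The counts higher were then 1, 1 and 0 in the same order, where 7.79% of all genes were. None of these 77 genes was called, and the medians of the 3 lists lay between 0.01 and 0.03 on the log2 scale, below the median of all genes. Other members of the GDE family and known substrates of GDE2, among them the glypican gene *Gpc1*, had 0 of 11 without overlap. *Gdpd5* itself, described above, is not among the 11.

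Of the 21 Notch pathway genes, in which GDE2 is known to act during development, 4 (19%) were higher and 1 (4.76%) was lower without overlap, where 11.1% and 4.26% of all genes were, and none was called. After rescaling by the median of ratios 4 (19%) were higher and 2 (9.52%) lower, where 7.79% and 7.07% of all genes were. *Dll4*, a ligand of blood vessels, stood at 51.9, 67.7 and 83 in WT and 111, 155 and 115 in *Gde2*KO. *Hey1*, a target gene, stood at 1228, 1171 and 1354 in WT and 1669, 1538 and 1937 in *Gde2*KO. *Hes5*, another target, and *Dll3* were higher by 0.84 and 0.43 on the log2 scale. The receptor *Notch2* was the member without overlap in the other direction, at 995, 1106 and 767 in WT and 654, 729 and 587 in *Gde2*KO. APP and its secretases had 0 of 12 without overlap.

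Glial and immune lists held small differences, read against the 11.1% of all genes that were higher without overlap (7.79% after rescaling). Of 9 microglial markers 3 (33.3%) were higher without overlap, among them *Aif1* and *Trem2*, and 1 (11.1%) was after rescaling. *Trem2*, the lipid receptor of microglia, stood at 132, 146 and 176 in WT and 187, 189 and 298 in *Gde2*KO. Of 18 complement genes 3 (16.7%) were higher without overlap, and 2 (11.1%) after rescaling. The 3 were the proteases *C1ra* (53.7, 45.7 and 76.5 in WT, 117, 99.5 and 150 in *Gde2*KO) and *C1s1* and the receptor *C3ar1*. Of 32 lysosomal genes 8 (25%) were higher without overlap, and 6 (18.8%) after rescaling. Of the 8, *Prcp*, a carboxypeptidase, differed most, at 231, 265 and 318 in WT and 527, 544 and 554 in *Gde2*KO (log2 fold change 1.01, limma adjusted p = 0.147). *Prcp* lies 6.45 Mb from *Gdpd5* and was also higher in every *Gde2*KO library at 19 months. *Gfap*, the filament of reactive astrocytes, stood at 24555, 7548 and 3933 in WT and 4570, 3672 and 4628 in *Gde2*KO, with the highest value in the WT library of highest hippocampal score. None of these lists had a called gene.

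Of 32 voltage-gated channel genes 4 were lower without overlap (12.5%, where 4.26% of all genes were) and 1 was higher. *Scn8a*, a sodium channel of the axon initial segment, stood at 13338, 13388 and 12661 in WT and 11520, 11848 and 8736 in *Gde2*KO. *Cacna1b*, a presynaptic calcium channel, was lower by 0.25 on the log2 scale, and *Kcnj4*, an inward rectifier potassium channel, was the higher one. The log2 difference from WT replicate 3 was -0.26 for *Scn8a* and -0.17 for *Cacna1b*, and none of the 32 was called. After rescaling by the median of ratios 7.07% of all genes were lower without overlap, with 4 of the 32 channels.

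Synaptic, cytoskeletal and metabolic lists had no called gene, and their counts are read against the 11.1% of all genes that were higher without overlap and the 4.26% that were lower. In the deposited scaling the shares of the lists named in this paragraph ran from 0% to 16.7% higher and from 0% to 7.69% lower. Of 22 glutamate receptor genes 1 was lower without overlap, *Grin2a*, an NMDA receptor subunit, at 16860, 16234 and 8688 in WT and 8377, 8648 and 7287 in *Gde2*KO, with WT replicate 3 close to *Gde2*KO. After rescaling by the median of ratios 5 of the 22 (22.7%) were lower without overlap, where 7.07% of all genes were, and 0 were higher. Of 14 GABA receptor genes 2 (14.3%) were higher without overlap and 1 (7.14%) after rescaling, among the first *Gabra4* at 3262, 3298 and 4206 in WT and 4393, 4686 and 5729 in *Gde2*KO. Of 26 genes of vesicle release the active zone scaffolds *Bsn* and *Pclo* were lower, by 0.29 and 0.30 on the log2 scale. *Map1b* was lower and *Stmn4* higher among 21 neurofilament and microtubule genes, and *Eomes* was lower and *Sox4* higher among 16 genes of immature neurons and proliferation. Of 22 genes of cholesterol synthesis and uptake none was without overlap. Every *Gde2*KO library was above WT replicate 3 in 16 of them (72.7%), where 29.1% of all genes were. Chaperones had 0 of 24 without overlap. In the immune lists not given above, *H2-D1* and *Psmb9* were higher among 14 genes of antigen presentation, *Lcn2* and *Aspg* among 12 of astrocyte reactivity and *Trem2* among 15 of disease-associated microglia, where *Gpnmb* was lower (213, 97.7 and 59.1 in WT, 56.1, 53.7 and 54 in *Gde2*KO).

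The median rise of genes of energy metabolism and protein synthesis came mainly from a single library. All 74 nuclear-encoded respiratory chain genes had a positive log2 fold change, with a median of 0.37, and 4 of the 74 were without overlap, fewer than the 11.1% of all genes. Without *Gde2*KO replicate 3 the median was 0.08, beside 0.04 for all genes. For 80 cytosolic ribosomal protein genes the median went from 0.39 to 0.06, for 31 proteasome subunits from 0.26 to 0.03, and for 13 mitochondrially encoded genes from 0.39 to 0.09. Of the 13 mitochondrially encoded genes 3 (23.1%) were higher without overlap, where 11.1% of all genes were. Without *Gde2*KO replicate 3 the count was also 3, where 13.2% of all genes were. After rescaling by the median of ratios it was 1 (7.69%), where 7.79% were. As an example without overlap in the deposited scaling, *mt-Atp6* stood at 112439, 101125 and 120791 in WT and 128803, 124815 and 284924 in *Gde2*KO. *Gde2*KO replicate 3 is the library with the high mitochondrial share, and the part of that share in these medians was not tested.

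**Figure D5:**
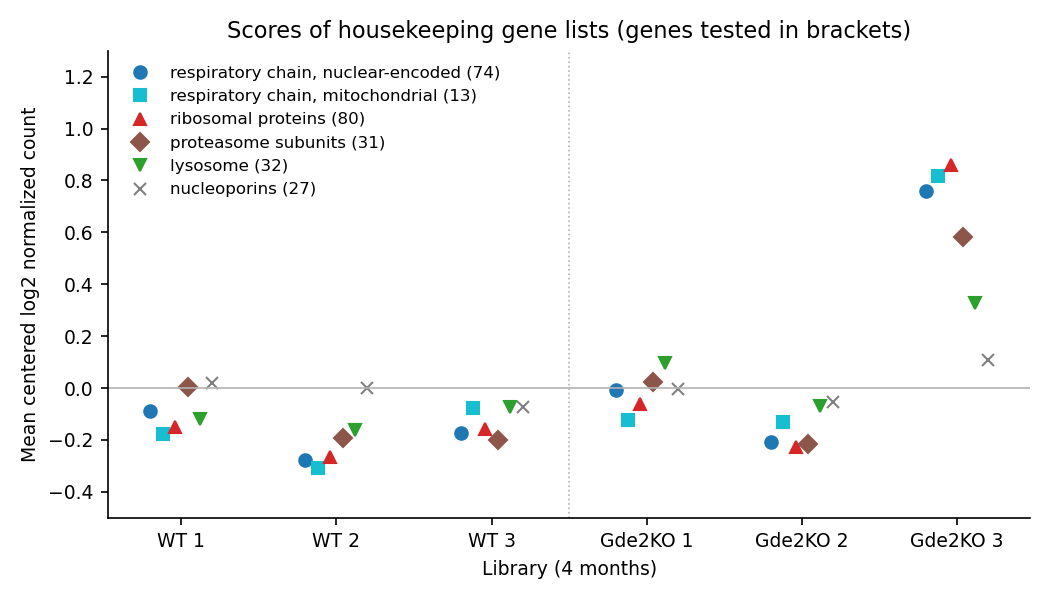
Score of each 4-month library for nuclear-encoded and mitochondrially encoded respiratory, ribosomal, proteasome, lysosome and nucleoporin genes, as the mean log2 level centered on the 6 libraries. *Gde2*KO replicate 3 stands at 0.76, 0.82, 0.86 and 0.58 for the first 4 lists, above every other library.

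Genes just outside the call are given as values. The 8 next higher named genes had log2 fold changes of 0.77 to 2.15 with adjusted p of 0.102 to 0.157, and 5 of 8 had the same sign at 19 months. *Pla2g4e*, a calcium-dependent acyltransferase of membrane lipids, stood at 204, 210 and 418 in WT and 883, 1522 and 1173 in *Gde2*KO, and its transcript ENSMUST00000136845.7 at 0, 11.5 and 0.0138 in WT and 168, 307 and 208 in *Gde2*KO. *Ints7*, a subunit of the Integrator complex, stood at 514, 566 and 747 in WT and 1176, 1365 and 1371 in *Gde2*KO. *Mxra8*, a matrix remodeling protein, stood at 118, 156 and 135 in WT and 274, 280 and 284 in *Gde2*KO. *Junb*, *Ier2*, *Prcp*, *Eif3j2* and *Rpl29* complete the group. *Rpl29*, at 2050, 1785 and 2012 in WT and 4283, 3949 and 6549 in *Gde2*KO, has many near-identical pseudogene copies, so its level is uncertain.

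The 8 next lower named genes had log2 fold changes of -1.33 to -0.77 with adjusted p of 0.239 to 0.463, and 3 of 8 had the same sign at 19 months. *Lonrf3*, a RING finger protein of the X chromosome, stood at 337, 344 and 300 in WT and 161, 201 and 146 in *Gde2*KO. *Prdm16*, a zinc finger regulator of neural stem cells and upper-layer neurons, had a mean of 412 ± 42.0 in WT and 232 ± 19.0 in *Gde2*KO (SD, n = 3 each). In both genes the WT libraries lay close together, and log2 differences of -0.83 for *Lonrf3* and -0.76 for *Prdm16* were left against WT replicate 3. *Cfap74*, a ciliary protein, stood at 543, 601 and 757 in WT and 291, 431 and 272 in *Gde2*KO, with most of the difference in transcript ENSMUST00000123952.8 (294, 243 and 462 in WT, 30.4, 36 and 33.7 in *Gde2*KO). *Tnfrsf18*, *Alox8*, *Kif26b* and *Hif3a* are also in the group.

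The 10 named genes called higher were chosen with WT replicate 3 among the 6 libraries, which by itself favors a large remaining share. Of these 10 genes, 71.7% to 111% of the log2 difference was left when WT replicate 3 alone stood for WT. In that comparison, which takes the spread from the *Gde2*KO libraries, *Myo7a* (limma adjusted p = 0.0356) and *Col6a4* (0.0535) were called, and with the hippocampal score as a covariate *Myo7a* alone was (0.0236). Without *Gde2*KO replicate 3 the call of *Myo7a* was likewise the one left among named genes. In the 19-month animals 4 of the 10 had the same sign and 6 the opposite sign, and none of the 10 was called.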

How the data were processed

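Polyadenylated RNA from cortex was sequenced by the study, 1 library per animal, with 3 WT and 3 *Gde2*KO libraries at 4 months. The authors quantified transcripts with Kallisto and deposited signal values from Sleuth, namely estimated counts and TPM divided by a size factor, for 118489 transcripts on GRCm38. As these deposited values are scaled and not whole, no count model was used. Transcripts were summed to 36047 genes with the deposited identifiers, and 0 columns were left out. Genes with 5 normalized counts or more in at least 47% of libraries were fitted with limma 3.58.1 (R 4.3.3) on log2(value + 0.5) with a trend on intensity, once per age and once over all libraries for the interaction. The study's Wald test was replaced by limma's moderated test. Plots were drawn with matplotlib 3.10.9 in python 3.11.15 (numpy 2.4.6, pandas 2.3.3). Positions are from GENCODE vM21.

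Genes named are *Gdpd5*, all called named protein-coding genes, the 8 next higher and 8 next lower by p with a mean of 50 or more and no overlap, and examples from 53 hand-written lists (called members, then smallest p and highest level). Other list members were named after their values were seen. Members and lists were chosen with earlier results of these data known. Alternatives covered pseudocount, filter, scaling, variance model, covariates, a replicate block and each library left out. The fits were tested on simulated data. Some genes that meet the rule are not reported here.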

Additional observations from a re-analysis of the deposited data

Results flagged for a closer look

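In 4 of the named genes the genotype effect differed between the ages by the interaction test (limma, adjusted over 18731 genes). For *Fam177a* the effect at 19 months minus that at 4 months was -1.8849 on the log2 scale (adjusted p = 0.00469), for *Srp54b* -2.4921 (0.00469) and for *Srp54a* -2.016 (0.0118). These 3 neighbors were higher in all 3 *Gde2*KO libraries at 4 months and lower in all 3 at 19 months. For *Lonrf3* the difference was 1.4072 (0.0385). It stood at 337, 344 and 300 in WT and 161, 201 and 146 in *Gde2*KO at 4 months, and at 214, 257 and 236 in WT and 323, 323 and 319 in *Gde2*KO at 19 months. The ages are different animals, and at 19 months 1 WT library held 6734475 and 1 *Gde2*KO library 3707928 estimated reads, far fewer than the libraries of 4 months. The Y-linked *Ddx3y* ran from 0 to 1776 at 19 months and from 21.8 to 46.5 at 4 months. The part of sex in these interactions was not tested.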

How the results depend on the processing

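The count of calls depended strongly on the libraries. Of 24 genes called at 4 months, leaving out 1 library gave 5 (without *Gde2*KO replicate 3) to 1510 (without WT replicate 3), and 14, 10, 12 and 15 without WT replicates 1 and 2 and *Gde2*KO replicates 1 and 2. For the 11 named genes the same settings gave 1 to 1415. The count for all genes and for named genes was 12 and 3 at an adjusted p under 0.05, 12 and 2 without the intensity trend, 2934 and 2246 with array weights (whose estimation stopped before converging), 95 and 67 with a Sleuth-style Wald test, 1 and 1 when named genes alone were fitted, 11 and 1 with the hippocampal score as covariate, 12 and 2 with the striatal score, and 14 and 2 for WT replicate 3 against *Gde2*KO. Named genes came to 7 with TPM and to 18 in a fit of all 12 libraries. *Gdpd5* passed with array weights only (-0.788, adjusted p = 0.000235). At 19 months 18 genes were called, and 9 to 45 with 1 library left out, and for the interaction 9 genes, and 6 to 2029, the last without WT replicate 3 of 4 months. No log2 fold change of *Gdpd5* or another named gene changed sign. List medians near 0 did under rescaling, for the Wnt intracellular pathway from 0.04 to -0.06, TDP-43 genes from 0.03 to -0.06, nucleoporins from 0.01 to -0.09 and importins from 0.02 to -0.08. TMM scaling was not run, because the deposited values are not counts. The cause of these shifts was not tested. With a replicate block 21 genes and 9 named genes were called, but the numbers do not pair the libraries (correlations of same-numbered libraries 0.0596, 0.00709 and -0.0477). For single genes, 496 values kept their side of the threshold, 64 gained and 115 lost it. Against WT replicate 3, MAP kinase feedback genes above it numbered 9 and synaptic effectors 12. With 3 libraries a side, low genes are the least precise, since 1 read is worth up to 0.721 normalized counts. Counts of early response genes against WT replicate 3, without *Gde2*KO replicate 3 and after rescaling were chosen after seeing the data.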
